A study of Mus musculus with 8 samples.

Results

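The PI3K, AKT and mTOR route was described in Th17 cells by its 9 core genes, *Mtor*, *Rptor*, *Rictor*, *Tsc1*, *Tsc2*, *Rheb*, *Akt1*, *Pik3cd* and *Pik3r1*. They were taken by name from the count tables of 2 RNA-seq libraries, which together list 13704 genes. All 9 had reads in both libraries and all 9 were among the 10881 genes that reached the minimum for testing, 10 reads summed over the pair of libraries. One library came from wild type (WT) C57BL/6 mice and the other from C57BL/6 mice labelled TRIM28fl/flxCD4cre (KO), in which the floxed *Trim28* gene, encoding a chromatin cofactor, is deleted by Cre recombinase under the *Cd4* promoter. This promoter is active from the thymus onwards, so the cells had lacked the gene since before they became naive T cells, and the loss was not restricted to the Th17 stage. Naive CD4+ T cells of either genotype were polarized in vitro with TGF-β (0.5 ng/ml) and IL-6 (20 ng/ml) and, after 3 days, were re-stimulated with anti-CD3. The age and sex of the mice, their number behind each library and whether the WT mice carried Cre are not given in the sources used here.

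In units of 1000 reads, the WT library held 6650 uniquely assigned reads and the KO library 6185. With 1 library per genotype no difference has a replicate check, and every interval covers counting error only. *Trim28* itself had 4485 WT and 180 KO reads, and its level fell by 4.53 on the log2 scale, in the direction of the labels. The T cell genes *Cd3d*, *Cd3e*, *Cd3g*, *Cd4* and *Lck* summed to 2378 CPM (reads scaled to the library total) in WT and 2412 CPM in KO. Of the Th17 genes, *Il17a* had 2226 WT and 381 KO reads, *Il17f* 3143 and 345, *Il23r* 195 and 107 and *Ccr6* only 5 and 7. Of the markers of other cells, 5 B cell genes summed to 11.6 and 7.44 CPM and 2 CD8 T cell genes to 7.97 and 4.69 CPM. Of 6 myeloid genes, 4 had no read in either library and the others together had 1 WT and 3 KO reads. The part of these shifts in the values below was not tested. Because the Th17 genes differed between the libraries, a lower value of any gene below can mean fewer cells of one type or less RNA per cell, and bulk libraries cannot tell these apart.

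PI3K is a lipid kinase that turns signals of the T cell receptor, CD28 and cytokine receptors into a phosphorylated membrane lipid, to which the kinases PDK1 and AKT are drawn. AKT inhibits the TSC complex, whose GTPase-activating subunit keeps the small GTPase RHEB off, and RHEB switched on activates the kinase mTOR in mTORC1. The partner protein sets the complex: RAPTOR makes mTORC1, which drives protein synthesis, glycolysis and growth, and RICTOR makes mTORC2, which phosphorylates AKT. In CD4+ T cells activation of this route accompanies the change from rest to growth, and mTORC1 is known to favour Th17 over regulatory T cell fate.

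None of the 9 genes was called, for which a gene had to change by 2-fold or more with an adjusted p under 0.05 (exact binomial test on how the reads divide between the libraries, Benjamini-Hochberg adjustment over all genes tested). Called lower in KO were 5.53% of all genes tested, and called higher 2.57%. By the weaker criterion of an adjusted p under 0.05 at any fold, referred to as past counting error, 5 of the 9 were lower (*Mtor*, *Rptor*, *Rictor*, *Pik3cd* and *Pik3r1*), 1 was higher (*Akt1*) and 3 did not pass (*Tsc1*, *Tsc2* and *Rheb*). Of all genes tested, 22.4% were lower and 21.4% higher by this criterion. The test compares these 2 libraries and not the genotypes. The median log2FC of the 9 genes (log2 of KO over WT, 0.5 added to each count) was -0.45, against -0.02 over all genes tested. The criterion passed for 55.6% of the 9 on the lower side, but most of the 9 have long transcripts, among which lower values in KO were more frequent, as described after the single genes.

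**Figure D1:**
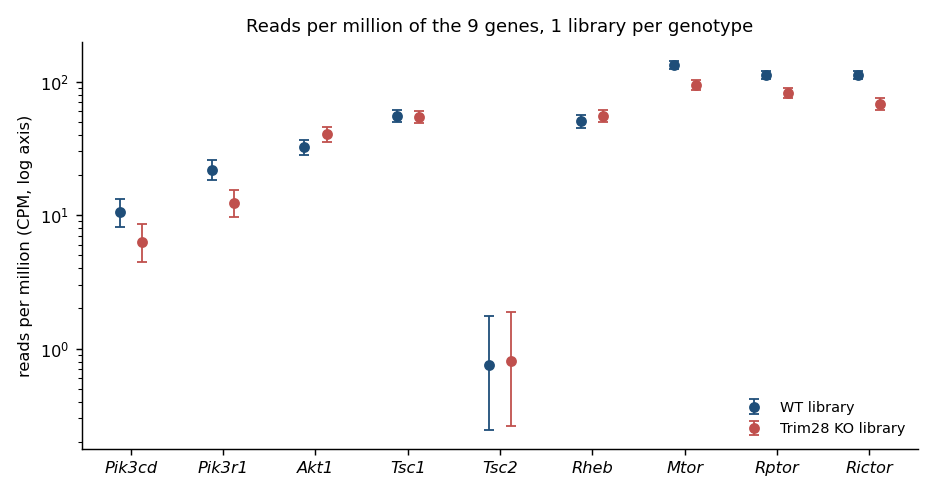
CPM on a log axis for each of the 9 genes in the WT library (blue) and the KO library (red), ordered from PI3K subunits to mTOR complex subunits; points are single libraries and bars are exact Poisson 95% intervals. *Mtor*, *Rptor*, *Rictor* and *Pik3r1* have WT and KO bars that do not overlap, and *Tsc2* lies far below the others with 5 reads in each library.

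Both PI3K genes were lower in the KO library. *Pik3cd* (chromosome 4 of GRCm38 from 149649168 to 149702566, up to 25 exons in a curated RefSeq transcript) encodes the delta catalytic subunit, the form of the lipid kinase that predominates in leukocytes. WT cells gave 70 reads (10.5 CPM) and KO cells 39 (6.31 CPM), with a log2FC of -0.73 and an exact 95% interval from -1.34 to -0.15. *Pik3r1* (chromosome 13 from 101680761 to 101768217, 16 exons) encodes the main regulatory subunit, which holds and stabilizes the catalytic subunit. Here WT cells gave 145 reads (21.8 CPM) and KO cells 76 (12.3 CPM), and the log2FC of -0.82 (interval from -1.25 to -0.42) was the lowest of the 9. The adjusted p of the exact binomial test was 0.0245 for *Pik3cd* and 0.000163 for *Pik3r1*. The catalytic to regulatory ratio of reads was nearly the same in both libraries, 0.483 in WT and 0.513 in KO (per kilobase of the longest transcript 0.698 and 0.742). The difference between their log2FC values was 0.09 with an interval from -0.65 to 0.82, so that at these counts a shift between the subunits of under 1.5-fold in either direction could not have been seen.

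*Akt1* (chromosome 12 from 112653821 to 112674884, 14 exons), the serine/threonine kinase downstream of PI3K, was the only one of the 9 that was higher in the KO library past counting error. WT cells gave 214 reads (32.2 CPM) and KO cells 249 (40.3 CPM), a log2FC of 0.32 with an interval from 0.05 to 0.59. Its adjusted p, 0.0415 by the exact binomial test, was the closest to the threshold, and it rose to 0.0516 when genes with at least 1 read were tested in place of 10. *Akt1* also did not pass under any correction for transcript length or GC content described below. The same held when variation between replicates was assumed. The CPM intervals of the 2 libraries, from 28.0 to 36.8 and from 35.4 to 45.6, overlapped.

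The TSC complex and its target showed no difference past counting error. *Tsc1* (chromosome 2 from 28640993 to 28691172, 23 exons), whose product stabilizes the complex, had 368 WT reads (55.3 CPM) and 337 KO reads (54.5 CPM). Its log2FC was -0.02 with an interval from -0.24 to 0.19, so a change of 1.5-fold or more lies outside the counting error of these libraries. *Rheb* (chromosome 5 from 24802823 to 24842361, 8 exons), the GTPase that activates mTORC1, had 335 reads (50.4 CPM) and 342 reads (55.3 CPM), a log2FC of 0.13 with an interval from -0.09 to 0.36. *Tsc2* (chromosome 17 from 24595816 to 24632676, up to 42 exons) encodes the GTPase-activating subunit that acts on RHEB. It had only 5 reads in each library (0.752 and 0.808 CPM), close to the 3 reads taken as the smallest level shown, which are 0.451 and 0.485 CPM. Its interval ran from -2.01 to 2.22, and no change of up to about 4-fold was detectable at this depth.

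The 3 genes that build the mTOR complexes were all lower in the KO library, and their intervals excluded 0. *Mtor* (chromosome 4 from 148448582 to 148557685, 58 exons), the kinase common to both complexes, had 890 WT reads (133.8 CPM) and 582 KO reads (94.1 CPM). Its log2FC was -0.51 with an interval from -0.66 to -0.36. *Rptor* (chromosome 11 from 119602905 to 119899591, 34 exons), the gene of RAPTOR, had 747 reads (112.3 CPM) and 508 reads (82.1 CPM), a log2FC of -0.45 with an interval from -0.62 to -0.29. *Rictor* (chromosome 15 from 6708349 to 6800401, 38 exons), the gene of RICTOR, had 749 reads (112.6 CPM) and 421 reads (68.1 CPM), a log2FC of -0.73 with an interval from -0.90 to -0.55. Adjusted p-values of the exact binomial test were 2.49e-10, 3.09e-07 and 6.44e-16. None reached 2-fold.

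The RNA of the partners in the 2 complexes was compared by read ratios, which do not measure the amounts of the protein complexes. *Rptor* and *Rictor* had nearly equal reads in the WT library, with a ratio of 0.997, and a ratio of 1.21 in the KO library. Per kilobase of the longest transcript the ratios were 1.41 in WT and 1.70 in KO, so the levels were not equal per length. The difference between their log2FC values was 0.27 with an interval from 0.03 to 0.52. After the correction for the longest transcript described below the difference was 0.16, with an interval from -0.09 to 0.40 that includes 0. *Mtor* kept its ratio to *Rptor*, 1.19 in WT and 1.15 in KO, with a difference of -0.06 (interval from -0.28 to 0.17). Against *Rictor* the *Mtor* difference was 0.22 (interval from -0.02 to 0.45). Scaled to library totals, the fold changes of *Rheb* and of the kinase it activates stood apart. The ratio of *Rheb* to *Mtor* reads was 0.376 in WT and 0.588 in KO (per kilobase of the longest transcript 0.797 and 1.24). The difference between their log2FC values was 0.64 with an interval from 0.37 to 0.91. With the length correction it was 0.30, with an interval from 0.03 to 0.57. That correction depends on the annotated lengths of both genes, as given below. Centred with RefSeq lengths, *Rheb* was at -0.083 and *Mtor* at -0.054, so the 2 no longer stood apart. Centred with median lengths, *Rheb* was at 0.22 and *Mtor* at -0.49. No p-value was computed for these differences.

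The promoter sequences of the 3 mTOR complex genes are shown because their reads were lower together. They are RefSeq windows of 300 bases on GRCm38.p6, from 250 bases before the annotated start to 50 after it, all on the plus strand, with capitals marking the GC box GGGCGG on either strand. The *Mtor* window is chr4:148448332-148448631, the *Rptor* window chr11:119602655-119602954 and the *Rictor* window chr15:6708131-6708430. The start used for the *Rictor* window lies downstream of the gene start of 6708349 given above.
Mtor: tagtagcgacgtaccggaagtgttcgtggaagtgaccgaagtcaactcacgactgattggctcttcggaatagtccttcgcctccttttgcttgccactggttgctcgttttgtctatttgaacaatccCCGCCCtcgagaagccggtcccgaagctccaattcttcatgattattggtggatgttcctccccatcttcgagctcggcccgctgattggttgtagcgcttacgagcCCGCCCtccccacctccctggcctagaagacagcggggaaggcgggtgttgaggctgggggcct
Rptor: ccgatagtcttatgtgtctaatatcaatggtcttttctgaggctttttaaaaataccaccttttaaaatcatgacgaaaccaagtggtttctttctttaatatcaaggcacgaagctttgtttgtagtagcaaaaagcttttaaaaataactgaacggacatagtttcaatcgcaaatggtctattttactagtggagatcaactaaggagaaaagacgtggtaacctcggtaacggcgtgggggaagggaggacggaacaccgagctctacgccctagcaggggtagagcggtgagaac
Rictor: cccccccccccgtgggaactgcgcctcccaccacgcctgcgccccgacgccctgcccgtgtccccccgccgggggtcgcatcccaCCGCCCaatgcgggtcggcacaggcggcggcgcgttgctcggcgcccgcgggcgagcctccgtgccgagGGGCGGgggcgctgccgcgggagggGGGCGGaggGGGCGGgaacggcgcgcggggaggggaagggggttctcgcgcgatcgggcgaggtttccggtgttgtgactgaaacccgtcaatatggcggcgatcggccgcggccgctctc

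The 3 windows differed in GC content and in GC boxes, though each had more CpG dinucleotides than the median window. *Rictor* had a GC content of 78.3% with 47 CpG dinucleotides and 4 GC boxes, *Mtor* had 56.7% with 21 CpG and 2 GC boxes, and *Rptor* had 41.7% with 13 CpG and no GC box. The median over the 32851 annotated mouse windows was 52.7% GC and 7 CpG. The 9 genes had 13 windows in all, since *Pik3cd* has 3 starts in the table and *Akt1* and *Pik3r1* have 2 each. A GC box was found in 7 of the 13 windows, against 35.7% of all windows. The TATA box TATAAA was found in 1 window (of *Pik3r1*, all windows 13.6%), the E-box CACGTG in 1 (*Rheb*, 7.15%), the STAT-type palindrome TTCNNNGAA in 1 (*Mtor*, 8.30%) and the nuclear receptor half-site AGGTCA in 1 (*Akt1*, 16.3%), each searched on both strands. None of these motifs overlaps the GC box in its letters, and a match in letters is a description and not a binding site.

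**Figure D2:**
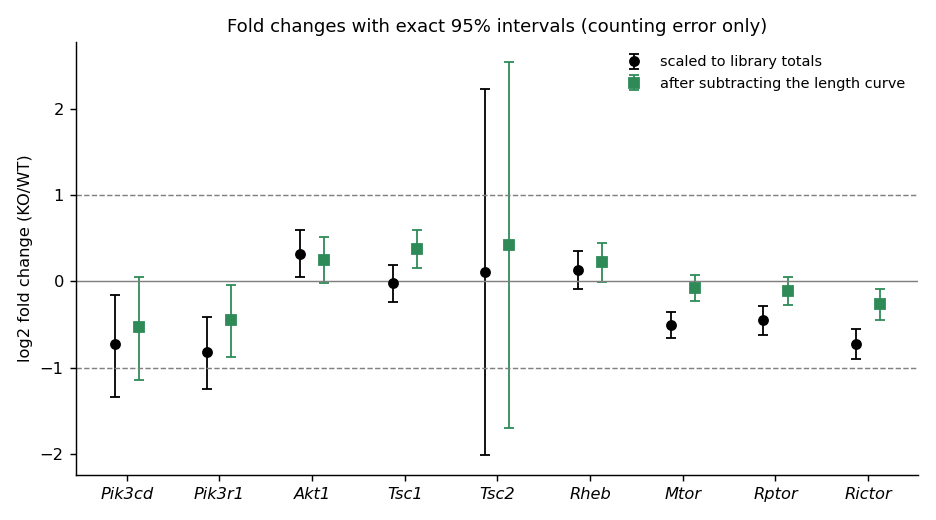
log2FC (KO/WT) of the 9 genes with exact 95% intervals, scaled to library totals (black circles) and after subtraction of the loess curve on the longest transcript (green squares); dashed lines mark 2-fold. All 9 black points lie within 2-fold, and the green points of *Mtor* and *Rptor* have intervals that include 0, whereas those of *Rictor* and *Pik3r1* exclude it on the lower side and that of *Tsc1* on the higher side.

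Transcript length moved with the fold change over the whole transcriptome. Over the 10791 tested genes whose length is annotated, the rank correlation (Spearman's rho) of log2FC with longest GENCODE transcript was -0.37, where the points are genes of the same 2 libraries and not independent replicates. The genes were split by length into 10 groups of near equal size. In the group with the shortest transcripts the median log2FC was 0.29, and in the one with the longest, from 6654 bases up, it was -0.44, with 55.1% of genes lower past counting error and 5.47% higher. *Mtor* (8564 bases), *Rictor* (9312), *Tsc1* (7702) and *Pik3r1* (7113) are in that longest group, and *Rptor* (6594) and *Tsc2* (6266) are in the next. *Pik3cd* (4921), *Rheb* (4046) and *Akt1* (2690) are shorter. Averaged over the length groups to which the 9 genes belong, 41.4% of genes were lower past counting error and 10.9% higher, against 5 and 1 of the 9 genes (55.6% and 11.1%). The part of transcript length, RNA quality or library preparation in the fold changes of these genes was not tested.

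Within its own length group each gene took another place than over all genes. Of all tested genes 20.2% had a lower log2FC than *Mtor*, against 42.9% of the genes in its length group, where it stood near the middle. For *Rptor* the shares were 22.7% and 36.6%. *Rictor* and *Pik3r1* lay lower, with 29.0% and 24.0% of their group below them, and *Pik3cd* the lowest, with 18.2%. *Tsc1* was at the other side, above 79.8% of the genes of its length group, and near the middle of all tested genes, of which 49.7% were lower. *Akt1* and *Rheb* were above 72.8% and 70.0% of theirs.

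When the loess curve on the longest transcript was subtracted and the null share of the test moved with it, only 1 of the 9 genes was lower past counting error, *Rictor*, and only 1 was higher, *Tsc1*. Over all genes with a length, 17.4% were lower and 20.8% higher. The length-centred value of *Rictor* was -0.27 with an interval from -0.44 to -0.09 (adjusted p of the exact binomial test 0.00758), and that of *Tsc1* was 0.37 with an interval from 0.16 to 0.59 (adjusted p of the exact test 0.0027). *Mtor* moved to -0.078 (interval from -0.23 to 0.07) and *Rptor* to -0.11 (interval from -0.28 to 0.05). *Pik3r1* moved to -0.45 (interval from -0.88 to -0.05) and *Pik3cd* to -0.53, with adjusted p-values of 0.0615 and 0.141 in the exact test. *Akt1* moved to 0.24 and *Rheb* to 0.22, and neither passed. The median of the 9 genes was -0.078 after centring. This depends on which length is used. With a curve on the median length of a gene's GENCODE transcripts, which for *Mtor* is 1616 bases, 4 of the 9 were lower past counting error and none was higher, and their median was -0.29. *Mtor* was then at -0.49, *Rptor* at -0.29, *Rictor* at -0.45 and *Pik3r1* at -0.89, with adjusted p-values of the exact test of 1.67e-09, 0.00148, 1.75e-06 and 4.06e-05, and *Tsc1* was at 0.24 with 0.0684. With a curve on the longest RefSeq transcript, again *Rictor* alone was lower. Centred values elsewhere in the text are from the longest GENCODE transcript unless another length is named. *Rheb* also differs between annotations: its longest GENCODE transcript has 4046 bases and its curated RefSeq transcript 1521, and with RefSeq lengths its centred value was -0.083.

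**Figure D3:**
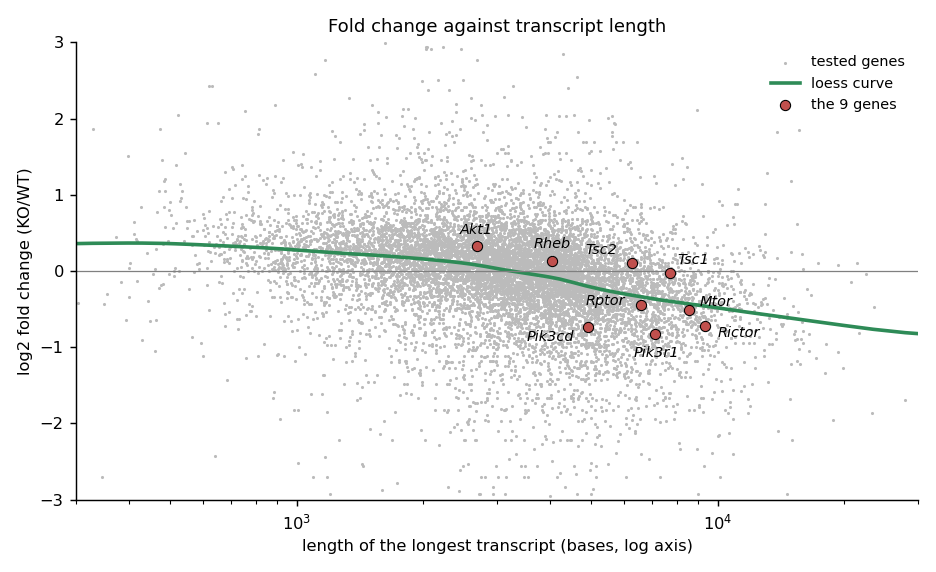
log2FC (KO/WT) against the length of the longest transcript (log axis) for the tested genes (grey), the loess curve (green) and the 9 genes (red, named); 105 of the 10791 genes lie outside the axes. *Mtor* and *Rptor* lie close to the curve, *Pik3cd* and *Pik3r1* below it, and *Tsc1* above it.

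Levels of the 9 genes were compared per length, as CPM per kilobase of the longest GENCODE transcript (RPKM). In the WT library *Rptor* (17.0 RPKM) and *Mtor* (15.6) were the highest, with overlapping counting intervals, followed by *Rheb* (12.5), *Rictor* (12.1) and *Akt1* (12.0), whose intervals also overlapped. *Tsc1* (7.18), *Pik3r1* (3.07) and *Pik3cd* (2.14) came next, the last pair with overlapping intervals, and *Tsc2* was the lowest at 0.12. In the KO library *Akt1* (15.0 RPKM) and *Rheb* (13.7) were the highest with overlapping intervals, then *Rptor* (12.5), whose interval overlapped those of *Akt1*, *Rheb* and *Mtor* (10.99), with *Rictor* (7.31) and *Tsc1* (7.07) next, their intervals overlapping. *Pik3r1* (1.73), *Pik3cd* (1.28) and *Tsc2* (0.129) were again at the bottom. Per RefSeq length *Rheb* was the highest in both libraries, at 33.1 and 36.4 RPKM.

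The low levels of *Tsc2* and *Pik3cd* went with a large number of annotated transcripts. *Tsc2* has 7 curated RefSeq transcripts and *Pik3cd* 6, *Tsc1* and *Akt1* have 3, *Rptor* and *Pik3r1* 2, and *Mtor*, *Rictor* and *Rheb* 1. Over all tested genes the median level in the WT library was 12.7 RPKM for the 5809 genes with 1 curated transcript, 6.13 for the 2291 genes with 2 and 3.31 for the 349 genes with 6 or more. The deposited counts are of uniquely assigned reads, and how reads that fit several transcripts were treated is not given in the sources used here, so its part in these levels was not tested. The share of exonic bases found in only 1 curated transcript was 1.43% for *Tsc2*, 8.94% for *Pik3cd*, 5.71% for *Akt1* and 27.0% for *Pik3r1*. It was 1.08% for *Rptor* and 0.0389% for *Tsc1*, which both had more reads than those genes. In addition, 10.9% of the exonic bases of *Tsc2* are overlapped by exons of *Pkd1* on the other strand, and 1.20% of those of *Rptor* by an antisense transcript. The median log2FC was 0.02 for genes with 1 curated transcript and -0.11 for those with 6 or more, a smaller shift than the one between length groups. The fold changes of *Tsc2* and *Pik3cd* rest on few reads.

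**Figure D4:**
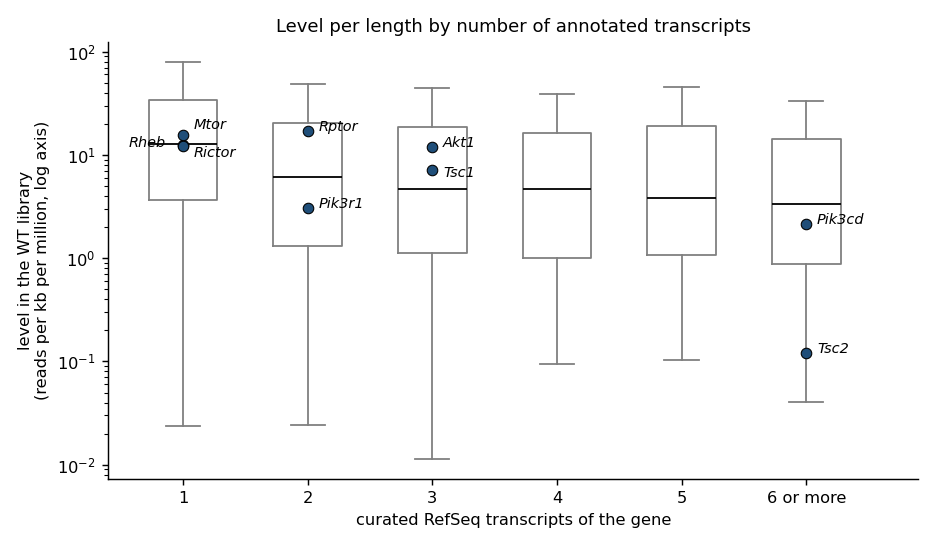
Level in the WT library (RPKM over the longest transcript, log axis) of tested genes grouped by their number of curated RefSeq transcripts; boxes show the middle 50% with the median, whiskers reach the farthest value within 1.5 box heights, and blue points are the 9 genes. The median falls from 12.7 with 1 transcript to 3.31 with 6 or more, where *Pik3cd* and *Tsc2* lie.

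The other genes of the route were read from 9 lists by role, which hold 87 genes beside the 9. Of these, 85 had reads and 74 were tested: 27 (36.5%) were lower past counting error, 12 (16.2%) higher and 35 did not pass, with a median log2FC of -0.12. Averaged over the length groups of the 74 genes, 27.2% of tested genes were lower past counting error and 19.0% higher. Of the 74, 4 were called, 3 lower and 1 higher, against 5.53% called lower and 2.57% called higher over all genes tested. After length centring 20 were lower past counting error and 12 higher, against 17.4% and 20.8% of all genes with a length. Their median was then -0.02. The counts of each list below are set beside the shares in the length groups of its own genes. These lists were written with earlier results of these libraries known, and nothing here shows that they differ from other genes.

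Among the 9 other genes tested from the PI3K list, 4 were lower past counting error and 1 was higher, against 34.5% and 12.8% in their length groups. This list also holds the adaptor gene *Pik3ap1* and genes of other PI3K classes, *Pik3c2a*, *Pik3c3* and *Pik3r4*, named here for that reason. Of these, *Pik3c2a* (log2FC -0.83) and *Pik3r4* (-0.72) were lower past counting error, also after length centring. *Pik3c3* and *Pik3ap1* did not pass. The one with the most reads, *Pik3ca*, encodes the alpha catalytic subunit that most cell types use, and had 1143 and 887 reads with a log2FC of -0.26. It turned to 0.18 after length centring, past counting error, and was at 0.13 with RefSeq lengths, which did not pass. Of 6 phosphatase genes that oppose PI3K or AKT, 4 were lower and 1 higher, against 46.7% and 8.23%. The median log2FC of these 6 was -0.51, and -0.16 after centring.

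*Akt2*, a paralog of *Akt1*, had 147 reads in each library and a log2FC of 0.10 (interval from -0.24 to 0.44), and it is named here after its values were seen. Of the 4 genes listed with *Akt1* as AKT kinases or their activator, 1 was lower past counting error and none was higher, against 32.9% and 13.4%. The counts are of uniquely assigned reads, and how reads that fit more than 1 of these related genes were treated is not given in the sources used here.

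Of 7 genes of AKT substrates, 3 were lower and 1 was higher past counting error, against 33.4% and 17.0%. *Foxo3*, a transcription factor that AKT excludes from the nucleus, was the gene called lower here, at 308 and 115 reads, with a log2FC of -1.31 (interval from -1.64 to -1.003). The kinase gene *Gsk3a*, with the most reads of that list, had 2419 and 2592 reads and a log2FC of 0.20, which passed, and of 0.07 after centring, which did not, while the values with median and RefSeq lengths, 0.30 and 0.10, did. The relative *Foxo1*, named after its values were seen, had 2509 and 1421 reads with a log2FC of -0.72. After centring *Foxo3* was at -0.96 and *Foxo1* at -0.28, both past counting error.

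Of the mTOR complex genes beside the 3 core genes, none of the 4 tested passed, against 13.0% lower and 25.8% higher in their length groups. The other 4 of that list could not be tested: *Mlst8*, a subunit of both complexes, had 4 and 0 reads, and *Telo2*, *Prr5l* and *Deptor* had 5, 3 and 0 reads in all. These genes are named because they were too low to test. Over the 96 genes of the route, 13 had fewer than 10 reads. Of these 13, 12 have 2 or more curated RefSeq transcripts, against 34 of the 83 that were tested. The same share among all genes under 10 reads was not computed, and the part of transcript number in these low counts was not tested. Of 26 amino acid sensing genes, 8 were lower and 4 higher past counting error, against 22.5% and 22.6%. *Fnip1* and *Fnip2*, partners of folliculin, a regulator of the RAG GTPases that bring mTORC1 to the lysosome, were both called lower. *Fnip1* had 623 and 237 reads (log2FC -1.29, interval from -1.51 to -1.07), and *Fnip2* 83 and 30 reads (-1.35, interval from -2.02 to -0.75). Each was at -0.97 after centring, within 2-fold and so no longer called, as was *Foxo3*, but with median lengths *Fnip2* (-1.13) and *Foxo3* (-1.18) were still called. *Sesn3*, a sestrin that restrains mTORC1 and the gene of that list with the most reads, had 2087 and 1324 reads with a log2FC of -0.55. Its centred value was -0.10 for its longest GENCODE transcript of 9125 bases, which did not pass, but -0.67 for its RefSeq length of 2158 bases and -0.50 for its median length, which both passed.

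Of 7 genes of energy and stress input, 2 were lower and 1 higher past counting error, against 18.2% and 23.6%. *Ddit4*, a stress-induced activator of the TSC complex, had the most reads, 2472 and 2204, and a log2FC of -0.06, which did not pass. After centring it was at -0.25 (interval from -0.33 to -0.16), past counting error, whereas with median lengths it was at -0.02, which did not pass. Of 11 genes of mTORC1 outputs, 5 were lower and 4 higher, against 26.9% and 18.4%. *Rps6*, the ribosomal protein phosphorylated by the S6 kinases, had 19520 and 16558 reads and a log2FC of -0.13, and of -0.39 after centring, past counting error both ways. Whether its reads were shared with pseudogene copies was not tested. *Tfeb*, a transcription factor of lysosome genes that mTORC1 holds in the cytosol, was the only gene of the route called higher, with 9 WT and 34 KO reads. Its log2FC was 1.97 with an interval from 0.93 to 3.27, and of 1.84 after centring. It has 3 curated transcripts and its call rests on 43 reads in all.

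**Figure D5:**
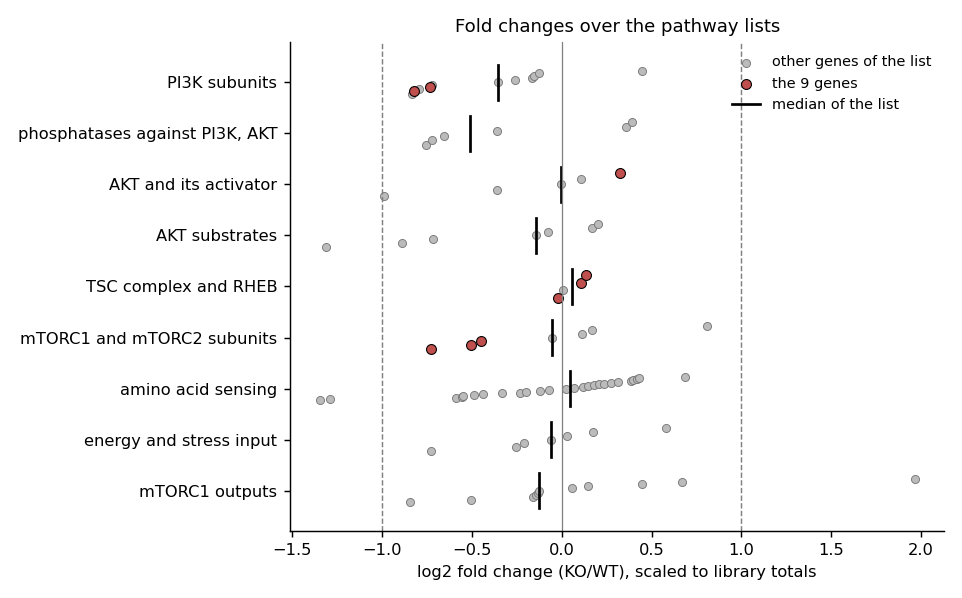
log2FC (KO/WT, scaled to library totals) of the tested genes in each of 9 role lists, with the 9 core genes in red, the others in grey and the median of each list as a black bar; dashed lines mark 2-fold. Beyond 2-fold lie *Foxo3*, *Fnip1* and *Fnip2* on the lower side and *Tfeb* on the higher side. The red points of the mTOR complexes lie below the other subunits of their list. These 3 genes have longest transcripts of 6594 to 9312 bases, against 1830 to 3830 bases for the other subunits plotted. The values are not corrected for length.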

How the data were processed

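RNA-seq of 1 WT and 1 *Trim28* KO library was used, and 6 ChIP-seq samples were not analysed here. The authors mapped the reads to mm10 with SOAP2 and deposited unnormalized counts per gene of reads with a unique assignment, 1 file a library, whose sum equals the total in the heading. The submitters' processing notes also name HTSeq and Bowtie with no role, and the paper gives Bowtie as the mapper of its ChIP-seq reads. Annotation and counting rules are not given in the sources used here, and genes at 0 are not listed. From the counts, CPM, RPKM and log2 fold changes (log2FC) were computed with a pseudocount of 0.5 and library totals. A gene needed 10 reads over the pair of libraries, and the exact binomial test was two-sided with Benjamini-Hochberg adjustment (SciPy 1.17.1). Intervals of fold changes are Clopper-Pearson, those of CPM exact Poisson, and those of differences between 2 genes exact conditional intervals of the odds ratio, all at 95% and for counting error only, as no molecular identifiers were used to count molecules. A quasi-likelihood fit of edgeR has no residual degrees of freedom with 1 library per genotype.

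Transcript lengths were taken from GENCODE M21 and matched 99.2% of the tested genes, and gene positions, transcript numbers and promoters from RefSeq GRCm38.p6. The loess span was 0.3 (statsmodels 0.14.6). Alternatives were TMM, upper-quartile scaling, DESeq2 1.42.0 size factors, a larger pseudocount (5), other filters, length and GC curves, edgeR 4.0.16 exact tests with assumed variation and a 1.5-fold threshold. The calculations were tested on simulated data. Named genes beyond the 9 are those of the role lists that were called or had the most reads in their list, exceptions are stated, and some genes are not reported here. The 9 genes and all lists were chosen with earlier results of these data known.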

Additional observations from a re-analysis of the deposited data

How the results depend on the processing

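No gene among the 9 was called under any setting with the 2-fold threshold. At 1.5-fold, 3 of the 9 were called lower, with 1248 genes lower and 764 higher over all genes and 14 lower and 3 higher among the other genes of the route. The direction of *Tsc1* turned under TMM (0.0028), the length curve (0.37), the curve on median transcript length (0.24), the length and GC curves together (0.36) and the curve on RefSeq length (0.40), and that of *Rheb* turned under the last (-0.083). The RefSeq curve was chosen after seeing the data. The number of the 9 lower past counting error (5) fell to 1 with the length curve, the length and GC curves and the RefSeq curve, which put the median at -0.078, -0.10 and -0.060 and left 0 of the 3 other route genes called lower. With the curve on median transcript length it was 4, with a median of -0.29, and 2 of the 3 route genes were still called lower. It was 2 when edgeR's exact test was given a variation of 0.1 between replicates, and 0 at 0.2 and 0.4. The number higher (1) fell to 0 with at least 1 read, the curve on median length, the GC curve and each assumed variation. With the length curve, the length and GC curves and the RefSeq curve, the 1 higher gene was *Tsc1*, and *Akt1* did not pass. Over all genes, 389 were called lower and 184 higher with at least 10 reads in each library, where *Tfeb* and *Tsc2* are left out and 0 route genes were called higher. With that test 849 and 486 genes were past the threshold at any fold at a variation of 0.1, 131 and 65 at 0.2, and 9 and 7 at 0.4, where at 0.2 and 0.4 the called numbers were the same, and 0 route genes were called in either direction at 0.2 or 0.4. Of 125 values of the 9 genes under the alternatives, 84 kept direction and side of the threshold, 35 lost the threshold and 6 turned. The causes of these changes were not tested. Replicate libraries could not be left out with 1 library per genotype.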
